A study of Homo sapiens with 9 samples.

Results

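The genes described here are 7 enzymes of the methionine cycle and of transsulfuration: MAT2A, MAT2B, AHCY, MTR, MTRR, CBS and CTH. They were selected by name from the deposited table of 19930 genes, with earlier results of the same libraries known. CBS was among the genes with the largest falls in both knockdown groups, so the values against the control siRNA are a description with no P value. All 7 genes passed the filter on low values, which required that FPKM average 1 or more across the 9 libraries and left 12884 genes for testing. FPKM scales the fragments of a gene to the length of its transcript and to the mapped fragments of the library. Levels of different genes are set side by side on this scale because it is per length. It does not correct for GC content or for sequence shared with other genes, so comparisons between genes are approximate.

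The libraries came from cells labelled MDA-MB-453, an established human breast cancer cell line, harvested 48 h after siRNA transfection with a lipid reagent. Each of the 3 groups had 3 libraries, and in all groups the cells carried a transfected siRNA. One group received the control siRNA (si-NC), and both others are labelled as knockdown of Linc00673, a long noncoding RNA, and are numbered 1 and 2. They are named si-LINC00673-1 and si-LINC00673-2 here after the siRNAs the study numbers in the same way, since no label names the siRNA itself. No label ties a library to a separate culture, so P values measure only the spread between these libraries, which may be technical. The level of LINC00673 itself was not analysed here.

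The step between neighbouring low FPKM values, which is worth 1 fragment, gave an approximate depth of 24.0 to 28.0 M fragments per library. Libraries of a group correlated with r between 0.994 and 0.996 over the tested genes, and no pair held equal values. With a 1.3-fold limit and P up to 0.05 before adjustment, 1432 genes were higher and 2004 lower with si-LINC00673-1, and 1411 were higher and 2974 lower with si-LINC00673-2, the latter becoming 1975 and 2246 once libraries were scaled by their median ratio over expressed genes. Over all tested genes the median change on the log2 scale stood at 0.003 for si-LINC00673-1 and at -0.095 for si-LINC00673-2, so differences with si-LINC00673-2 are to be read against a small fall shared by most genes. Of the 8 genes set down as markers of this line, KRT8 (3011.46 to 3773.05 FPKM), KRT18, EPCAM and CDH1 were high and ERBB2 lay between 11.79 and 17.82 FPKM. FOXA1, a factor of luminal breast cells, was at most 0.04 FPKM in every library, while VIM, set down as low, reached 440.74 FPKM, so the identity of the cells rests on their label. The summed FPKM of the 8 markers ranged from 6200.0 to 6670.0 in si-NC cells, from 5150.0 to 5650.0 in si-LINC00673-1 cells and from 5230.0 to 5680.0 in si-LINC00673-2 cells. Of 5 markers of other cell types, 4 were analysed, and their summed FPKM ranged from 3.59 to 4.21 in si-NC cells, from 5.52 to 5.97 in si-LINC00673-1 cells and from 5.58 to 7.19 in si-LINC00673-2 cells, nearly all of it COL1A1. PTPRC, PECAM1 and COL1A2 were at most 0.12 FPKM. The part of these differences in the results below was not tested.

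In the methionine cycle, methionine adenosyltransferase makes S-adenosylmethionine, the methyl donor of most methylation reactions, and the S-adenosylhomocysteine left after a methyl transfer is split to homocysteine. Homocysteine stands at a branch point. It is either methylated back to methionine with a methyl group from folate, or condensed with serine to cystathionine, which commits its sulfur to cysteine and so to glutathione. Cells vary in how far they use this second route, transsulfuration, to make cysteine instead of importing it as cystine.

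Guide strands of the siRNAs, as the study gives them, are shown because every comparison below is between cells that received one of them. Capitals mark the seed, bases 2 to 8 from the 5′ end.
si-LINC00673-1: aGAAACCUcugauuccacctt
si-LINC00673-2: uUAUUAUUugagacagggucu
si-NC: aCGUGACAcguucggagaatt
The longest contiguous match between a target and any coding transcript of the 7 genes was 6 to 9 bases for si-LINC00673-1, 7 to 10 bases for si-LINC00673-2 and 6 to 8 bases for si-NC, of targets of 19, 21 and 19 bases. In the longest coding transcript of each gene (GENCODE release 29), sites for the seed of si-LINC00673-1 lay in CTH (1) and MTRR (2), those for si-LINC00673-2 in MAT2B (2) and MTRR (1), and those for si-NC in CBS (2) and MTR (1). A seed site is a match of letters and not a measured effect.

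The 60 bases before an annotated start are shown for the 3 genes that were lowest against si-NC and, for contrast, for MAT2A, which was not. They come from the RefSeq promoter table on GRCh38.p14, and capitals mark CG dinucleotides.
CBS, chr21:43076378-43076437, reverse strand: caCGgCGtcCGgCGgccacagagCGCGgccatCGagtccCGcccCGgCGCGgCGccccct
AHCY, chr20:34303356-34303415, reverse strand: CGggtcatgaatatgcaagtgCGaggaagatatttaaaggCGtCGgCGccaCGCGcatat
CTH, chr1:70411208-70411267, forward strand: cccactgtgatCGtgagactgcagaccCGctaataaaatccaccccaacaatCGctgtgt
MAT2A, chr2:85539108-85539167, forward strand: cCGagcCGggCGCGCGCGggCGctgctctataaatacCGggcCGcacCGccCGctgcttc
The CBS stretch held 12 CG dinucleotides and 83.3% G or C, and the CTH stretch held 3 and 51.7%. The AHCY stretch held 7 and 51.7%, and that of MAT2A, which was not lower, held 11 and 75.0%. The table gives other starts too, and the stretches were chosen after their composition was seen: over 3 starts each, the content ranged from 71.7% to 83.3% for CBS and from 51.7% to 76.7% for AHCY. The table lists promoters of 6 of the 7 genes, with 12 windows of 250 bases before to 50 after a start. TGATGNAAN and TTGCATCA, forms of the composite element bound by ATF4, and the E-box CACGTG were searched on both strands and were found in none of the 12 windows. Of the 35116 windows in the table, 3.61%, 0.87% and 7.26% hold them. With shares this small, finding none in 12 windows is not unusual, and nothing is read from it.

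Against si-NC, CBS stood far apart from the other enzymes, at 16.0% of the control level with si-LINC00673-1 and 12.3% with si-LINC00673-2. CTH, the next enzyme of transsulfuration, was at 67.9% and 50.6%, and AHCY, which makes the homocysteine they use, was 1.25 and 1.31 times lower. MAT2A, MAT2B, MTR and MTRR lay between 87.7% and 110.0% of their control levels. With the criteria above, 1 of the 7 genes was lower and none higher with si-LINC00673-1, against a background of 15.6% of tested genes lower and 11.1% higher. With si-LINC00673-2, 3 of the 7 were lower and none higher, against 23.1% lower and 11.0% higher. The libraries did not overlap with those of si-NC for 4 of the 7 genes with si-LINC00673-1, where this held for 70.0% of tested genes, and for 5 of the 7 with si-LINC00673-2, where it held for 73.0%. These contrasts chose the genes, and nothing is read from the counts. The median log2 fold change of the 7 genes was -0.05 and -0.18, beside 0.003 and -0.095 over all tested genes.

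**Figure D1:**
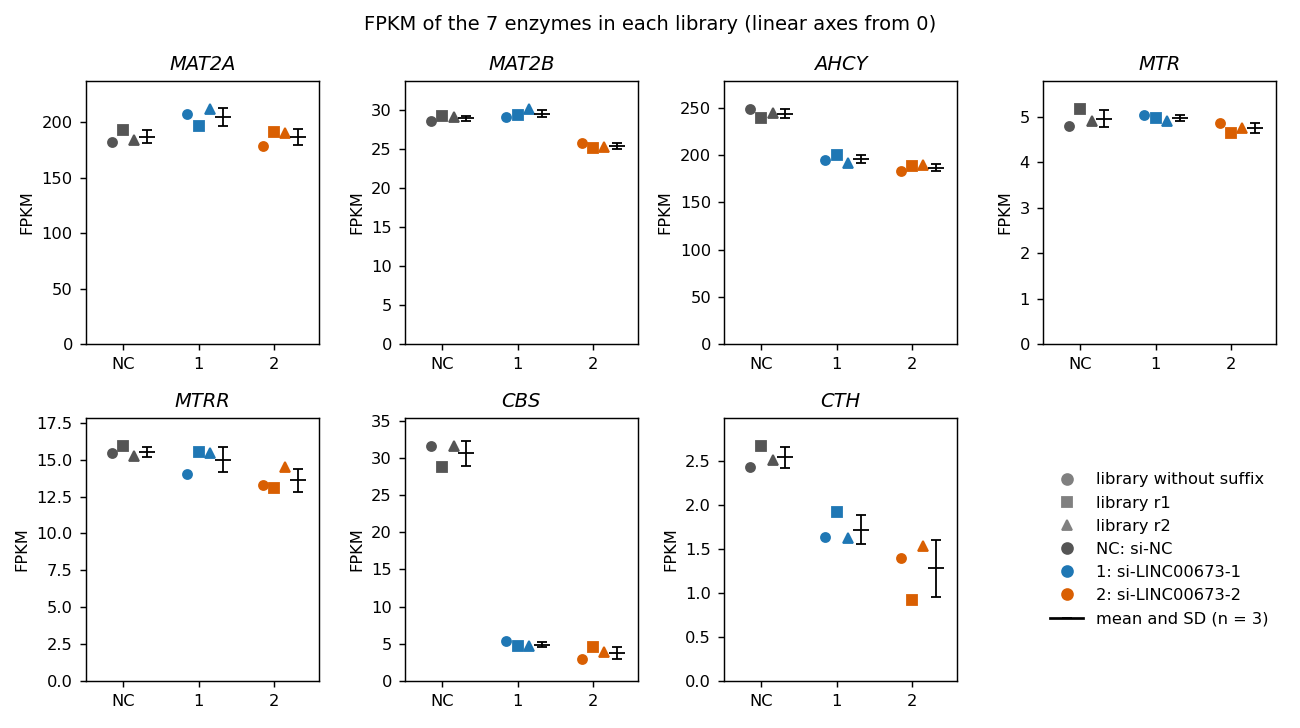
FPKM of each of the 7 genes (vertical axes, linear and starting at 0) in the 9 libraries, by group (horizontal axes), with group means and SD (n = 3). The CBS libraries of both knockdown groups lie between 2.89 and 5.31 FPKM, far below the si-NC libraries at 28.74 to 31.6 FPKM, while MTR stays between 4.64 and 5.16 FPKM in all groups.

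MAT2A encodes the catalytic subunit of the methionine adenosyltransferase found outside the liver. The gene lies at chr2:85766101-85772403 on the forward strand (GRCh37, the build of the deposited coordinates). Its FPKM was 182.21, 193.4 and 184.51 with si-NC. With si-LINC00673-1 it was 207.65, 196.75 and 211.92, and with si-LINC00673-2 it was 179.04, 191.78 and 190.18. All libraries of si-LINC00673-1 thus lay above all of si-NC, by 1.10 times in the mean, and those of si-LINC00673-2 overlapped with them. On log2(FPKM + 1), the change was 0.14 (SE 0.039) with si-LINC00673-1 and 0.00 with si-LINC00673-2, the second becoming 0.11 after scaling by the median ratio and -0.43 after division by GAPDH.

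MAT2B encodes the regulatory subunit of the same enzyme, at chr5:162930070-162946359 on the forward strand. It was present at 28.62, 29.25 and 29.15 FPKM with si-NC and at 29.22, 29.42 and 30.16 FPKM with si-LINC00673-1, which overlapped. With si-LINC00673-2 it was at 25.86, 25.12 and 25.36 FPKM, below every other library. Its log2 fold change was 0.03 and -0.18 (SE 0.029), short of the 1.3-fold limit with both siRNAs. MAT2B was the least variable of the 7 genes within each group apart from MTR with si-LINC00673-1, with a coefficient of variation of 1.17%, 1.67% and 1.48%.

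AHCY encodes S-adenosylhomocysteine hydrolase, the only mammalian enzyme known to release homocysteine in this cycle, and lies at chr20:32868071-32899608 on the reverse strand. It was the most abundant of the 7 with si-NC, at 248.68, 239.62 and 244.95 FPKM, a mean above that of 98.2% of tested genes. The si-LINC00673-1 libraries held 194.48, 200.37 and 191.82 FPKM, and the si-LINC00673-2 libraries 183.35, 188.27 and 189.55 FPKM. No knockdown library reached the lowest si-NC library, and every si-LINC00673-2 library was below every si-LINC00673-1 library. On log2(FPKM + 1) AHCY changed by -0.32 with si-LINC00673-1, short of the limit of 0.38, and by -0.384 with si-LINC00673-2, just past it. Scaling by the median ratio took the second to -0.28 and a correction for transcript GC content to -0.31, both short of the limit, so the AHCY call was borderline.

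MTR encodes methionine synthase, the cobalamin-dependent enzyme that returns homocysteine to methionine, and lies at chr1:236958581-237067281 on the forward strand. It was found at 4.79, 5.16 and 4.91 FPKM with si-NC, 5.04, 4.96 and 4.91 FPKM with si-LINC00673-1, and 4.86, 4.64 and 4.74 FPKM with si-LINC00673-2. Both knockdown groups overlapped with si-NC. The log2 fold change was 0.00 (95% interval -0.09 to 0.10) and -0.05 (-0.15 to 0.04), and differences beyond these bounds were not seen as the values were deposited.

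MTRR encodes methionine synthase reductase, which keeps the cobalamin of methionine synthase in its active state, at chr5:7869217-7901237 on the forward strand. Its levels were 15.42, 15.93 and 15.26 FPKM with si-NC and 14.03, 15.54 and 15.43 FPKM with si-LINC00673-1. With si-LINC00673-2 they were 13.31, 13.05 and 14.52 FPKM, all below si-NC. The difference with si-LINC00673-2 was -0.18 on the log2 scale (SE 0.051), and -0.08 relative to the median of all tested genes. Both remethylation genes therefore stayed short of the 1.3-fold limit with each siRNA, and passed it with si-LINC00673-2 only after division by GAPDH, which itself differed by 0.43 there and moved the median of all genes to -0.524.

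CBS encodes cystathionine beta-synthase, which uses pyridoxal phosphate and is activated by S-adenosylmethionine, and catalyses the first step of transsulfuration. The gene lies at chr21:44473301-44496971 on the reverse strand. Its FPKM was 31.6, 28.74 and 31.6 with si-NC, 5.31, 4.64 and 4.73 with si-LINC00673-1, and 2.89, 4.55 and 3.9 with si-LINC00673-2. The lowest control library was thus several times above the highest knockdown library. The means were 6.26 times lower with si-LINC00673-1 and 8.11 times lower with si-LINC00673-2. The fitted log2 fold changes were -2.43 and -2.74 (SE 0.11 for both). Ordered by fitted change, CBS had rank 9 of 12884 for si-LINC00673-1, counted from the largest fall, and rank 5 for si-LINC00673-2.

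The size of the CBS difference depended little on the processing. Its transcripts are rich in G and C, at 59.6%, more than in 82.1% of tested genes. After the correction for GC content the change was -2.21 and -2.58, and over all alternatives it ranged from -2.62 to -2.21 and from -3.17 to -2.58. A second limit is sequence shared with CBSL, which is listed as a separate gene in the transcripts searched here. In these, 83.1% of the 3568 windows of 100 bases in CBS transcripts also occur in transcripts of CBSL. The transcripts are of the GENCODE release used for the seed sites, and not of the authors' build, GRCh37.p13. CBSL was not analysed here. Whether the authors' reference held CBSL, and how fragments were then divided, was not tested. The values therefore stand for the sequence listed as CBS. Among the other genes, AHCY shared 1.8% of its windows and MAT2A 0.4% with other genes, and the remaining 4 shared none.

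CTH encodes cystathionine gamma-lyase, which splits cystathionine to release cysteine, and lies at chr1:70876901-70905534 on the forward strand. It was the least abundant of the 7 in every group, at 2.43, 2.67 and 2.51 FPKM with si-NC. The si-LINC00673-1 libraries held 1.63, 1.92 and 1.62 FPKM, and the si-LINC00673-2 libraries 1.4, 0.92 and 1.53 FPKM. The groups did not overlap, and their order was si-NC, si-LINC00673-1, si-LINC00673-2. The mean was 1.47 times lower with si-LINC00673-1, but the 1 FPKM added before the logarithm reduces the change of such a low gene to -0.378, just short of the limit. With 0.1 FPKM added it was -0.54 and met the criteria. With si-LINC00673-2 the mean was 1.98 times lower and the log2 fold change -0.64 (SE 0.10). Only 47 to 142 fragments per library are estimated to stand behind these values, and the coefficient of variation reached 25% with si-LINC00673-2.

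**Figure D2:**
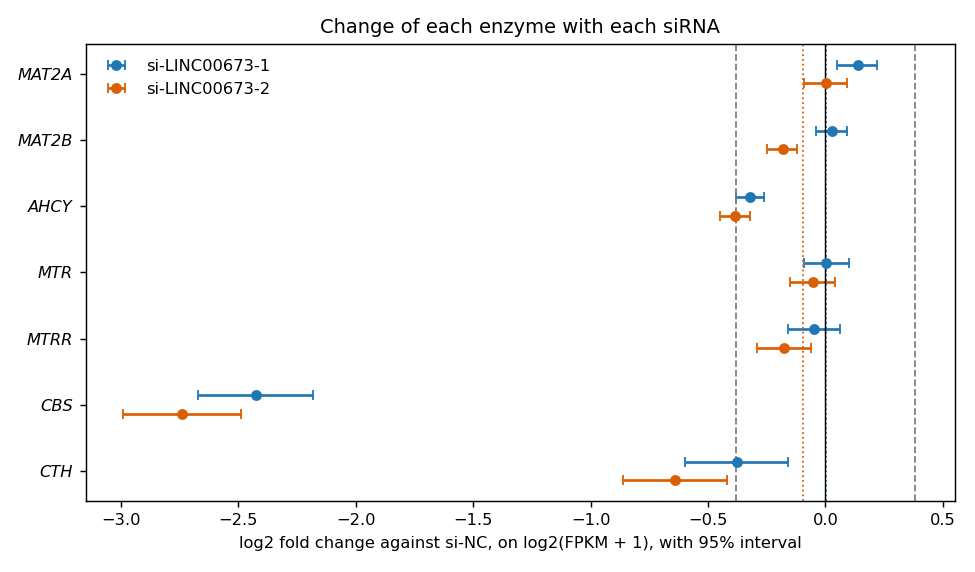
Log2 fold change of each gene against si-NC on log2(FPKM + 1) (horizontal axis), with 95% intervals from the fit over all tested genes, for si-LINC00673-1 and si-LINC00673-2. Dashed lines mark the 1.3-fold limit and dotted lines the medians of all tested genes, 0.003 and -0.095. CBS lies at -2.43 and -2.74, and each other gene between -0.64 and 0.14.

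In the order of levels, CBS changed its place most. With si-NC it was AHCY, MAT2A, CBS, MAT2B, MTRR, MTR and CTH, where CBS and MAT2B overlapped and all other neighbours were apart. With si-LINC00673-1, CBS had moved below MAT2B and MTRR to the level of MTR, with which it overlapped. With si-LINC00673-2 it lay below MTR, apart from it, and still above CTH. AHCY and MAT2A, apart with si-NC, overlapped in both knockdown groups.

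Ratios within a library do not depend on its scaling. In si-NC cells CBS was 6.20 ± 0.552 times the level of MTR (mean ± SD, n = 3). In si-LINC00673-1 cells the ratio was 0.984 ± 0.0617, and in si-LINC00673-2 cells 0.799 ± 0.194. The transcript of the enzyme that draws homocysteine into transsulfuration thus went from well above that of methionine synthase to about its level or below. CBS to CTH went from 12.1 ± 1.19 to 2.86 ± 0.423 and 3.19 ± 1.54, the last with a spread set by the low CTH value of library r1, where the ratio was 4.95. MAT2A to AHCY ranged from 0.733 to 0.807 in si-NC cells, from 0.982 to 1.10 in si-LINC00673-1 cells and from 0.976 to 1.02 in si-LINC00673-2 cells. This ratio was added to those planned and, like the others, was not corrected for GC content. The transcripts hold 45.6% (MAT2A) and 56.2% (AHCY) G or C. After a GC correction, AHCY changed by -0.21 and -0.31 and MAT2A by 0.10 and -0.02 on the log2 scale. The catalytic to regulatory ratio, MAT2A to MAT2B, was 6.44 ± 0.153, 6.94 ± 0.222 and 7.35 ± 0.378, with no knockdown library at or below the highest si-NC library. MTR to MTRR stayed between 0.311 and 0.365 in all libraries.

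**Figure D3:**
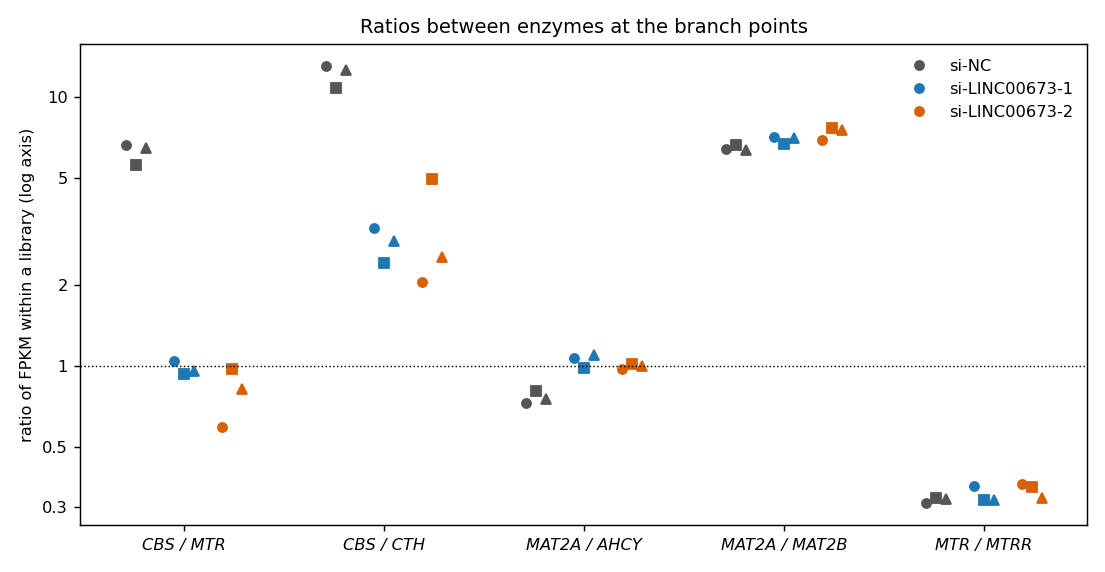
Ratio of FPKM between enzymes in each of the 9 libraries (vertical axis, logarithmic), with 1 point per library and the group given by colour. CBS to MTR lies between 5.57 and 6.60 with si-NC and between 0.595 and 1.05 in the knockdown libraries, while MTR to MTRR stays between 0.311 and 0.365.

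Both knockdown groups were then compared with each other, to see whether the siRNAs differed in their effect on these genes. This contrast did not choose the genes, and P values were adjusted by the Benjamini-Hochberg method over all 12884 genes of the limma fit. All 7 genes were lower in value with si-LINC00673-2, by a median of -0.13 on the log2 scale, beside -0.081 over all tested genes. An adjusted P of at most 0.05 was reached by 3 of the 7, and by 44.0% of all tested genes. The libraries did not overlap for 6 of the 7, where 53.7% of tested genes showed this. None reached the 1.3-fold limit in this comparison, which 5.45% of tested genes passed downwards and 2.19% upwards.

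MAT2B differed by -0.21 (95% interval -0.28 to -0.15, adjusted P = 0.00047 by limma), with all 3 libraries of si-LINC00673-2 below the others. After scaling by the median ratio the difference was -0.11 (adjusted P = 0.016), and it passed the threshold under every alternative run. MAT2A differed by -0.13 (-0.22 to -0.05, adjusted P = 0.019), which became -0.03 (adjusted P = 0.57) after that scaling. It also missed the threshold without the unsuffixed (adjusted P = 0.058) or the r2 (0.074) library of si-LINC00673-1, or without the unsuffixed library of si-LINC00673-2 (0.054). CBS differed by -0.32 (-0.56 to -0.07, adjusted P = 0.041), with 3.78 ± 0.836 FPKM against 4.89 ± 0.364 FPKM. The CBS difference was not stable: it missed the threshold after scaling by the median ratio (-0.23, adjusted P = 0.13), with the replicate block (adjusted P = 0.074), and without the unsuffixed si-LINC00673-2 library, which had the lowest CBS value (-0.17, adjusted P = 0.080).

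The remaining 4 genes did not pass the adjusted threshold as deposited. CTH differed by -0.26 (-0.49 to -0.04, adjusted P = 0.057), MTRR by -0.13 (-0.24 to -0.02, adjusted P = 0.063) and AHCY by -0.06 (adjusted P = 0.087). MTR differed by -0.06 (-0.15 to 0.04, adjusted P = 0.32). AHCY and MTR changed sign after scaling by the median ratio, to 0.04 and 0.03.

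**Figure D4:**
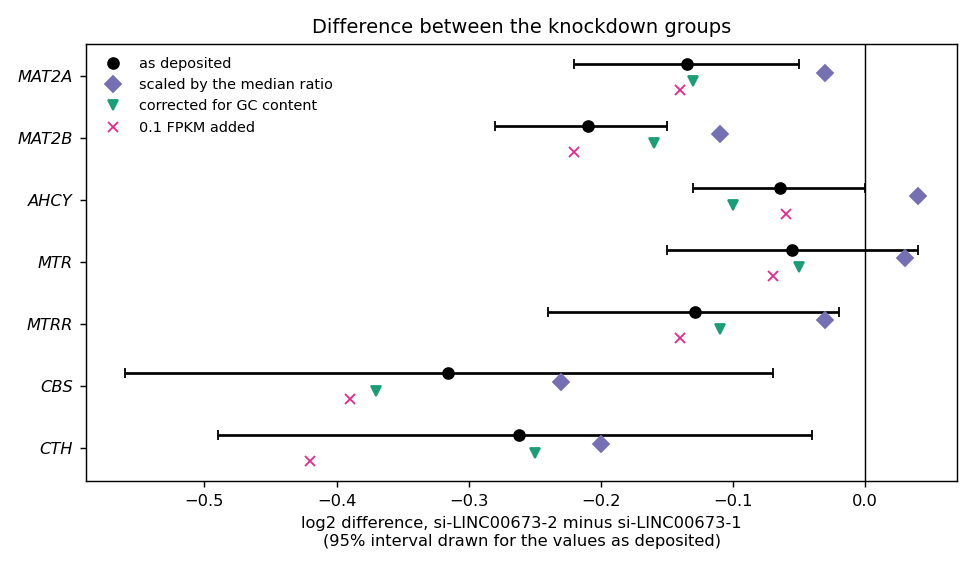
Log2 difference of each gene between the knockdown groups, si-LINC00673-2 minus si-LINC00673-1 (horizontal axis), as deposited with its 95% interval and, without intervals, under 3 other settings. Scaling by the median ratio moves each gene towards or past 0, from -0.21 to -0.11 for MAT2B and from -0.13 to -0.03 for MAT2A.

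The genes whose pattern over the 9 libraries was nearest to that of CBS, by the root mean square difference of log2(FPKM + 1) centred on the si-NC mean, were ranked. ASNS, asparagine synthetase, had rank 2 at a distance of 0.26, with 162.0 ± 5.4 FPKM with si-NC, 34.4 ± 0.272 with si-LINC00673-1 and 28.9 ± 0.564 with si-LINC00673-2. CHAC1, an enzyme that degrades glutathione, had rank 4 at 0.35, with 11.8 ± 0.297, 2.53 ± 0.195 and 0.970 ± 0.11 FPKM. The other three were transcripts predicted by the authors with no gene name: BGI_novel_G000883 (0.23), BGI_novel_G000227 (0.32) and BGI_novel_G003074 (0.37). In the order given, these transcripts had means of 4.41, 8.82 and 6.46 FPKM with si-NC, and at most 0.593 FPKM in either knockdown group. The first was at 0.0 FPKM in both. At such levels the 1 FPKM added before the logarithm limits the change, so their closeness to CBS does not mean an equal fold. None of the other 6 enzymes was among the 5 nearest genes.

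The genes around the cycle were taken from lists compiled from general knowledge, with earlier results known. Among other enzymes of the cycle, MAT1A, BHMT, BHMT2 and GNMT, genes typical of liver, did not pass the filter on low values and were at most 0.370 FPKM in each group mean. AHCYL1 and AHCYL2, relatives of AHCY, met the criteria with neither siRNA. AHCYL1 changed by 0.13 and -0.09 on the log2 scale in si-LINC00673-1 and si-LINC00673-2 cells, and AHCYL2 by 0.19 and 0.04.

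Of 17 tested genes that use cysteine or its sulfur, none rose and 6 fell with si-LINC00673-1, and none rose and 7 fell with si-LINC00673-2. Beside these counts, 15.6% and 23.1% of all tested genes were lower and 11.1% and 11.0% higher. The shares lower in the list were 35.3% and 41.2%. The medians were -0.23 and -0.37, and -0.13 and -0.27 after the correction for GC content. CHAC1 changed most, by -1.86 and -2.70. SUOX, sulfite oxidase of the last step of cysteine breakdown, was at 8.07 ± 0.119, 4.24 ± 0.381 and 2.48 ± 0.20 FPKM with si-NC, si-LINC00673-1 and si-LINC00673-2. MPST, which moves sulfur from mercaptopyruvate, fell from 53.4 ± 4.68 FPKM to 25.7 ± 1.75 and 25.7 ± 3.02 FPKM. The enzymes of glutathione synthesis did not meet the criteria, with GCLC at -0.10 and -0.24, GCLM at 0.30 and 0.22, and GSS at -0.23 and -0.32. After the correction for GC content, 4 genes of this list were lower with each siRNA, and 1 was higher with si-LINC00673-1. Of the 11361 genes tested under it, 1019 were lower and 1548 higher with si-LINC00673-1, and 2037 were lower and 1393 higher with si-LINC00673-2.

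Of the 11 carriers of methionine, cystine, serine and related amino acids, none rose, 5 fell with si-LINC00673-1 and 6 fell with si-LINC00673-2. The counts were the same after scaling by the median ratio, where 1994 and 2246 of the 12884 tested genes were lower. They were also the same after the GC correction, where 1019 and 2037 of 11361 genes were lower. As deposited, 15.6% and 23.1% of all tested genes were lower and 11.1% and 11.0% higher. The shares of the carriers that were lower were 45.5% and 54.5%. The medians were -0.36 and -0.68, and -0.14 and -0.47 after the GC correction. SLC7A5, the carrier of large neutral amino acids including methionine, fell from 98.4 ± 3.68 FPKM to 55.0 ± 1.53 and 44.1 ± 0.607 FPKM. SLC1A4, a carrier of serine, alanine and cysteine, fell from 6.73 ± 0.0551 FPKM to 2.62 ± 0.167 and 2.09 ± 0.0802 FPKM, and SLC43A1, another carrier of large neutral amino acids, from 25.9 ± 0.242 FPKM to 13.4 ± 0.494 and 12.5 ± 0.656 FPKM. SLC7A11, which imports the cystine that is the other source of cysteine, fell from 6.18 ± 0.257 FPKM to 4.17 ± 0.291 and 3.48 ± 0.104 FPKM.

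Methionine salvage and polyamine synthesis was mixed. Of 15 tested genes, 1 rose and 2 fell with si-LINC00673-1, and 3 rose and 3 fell with si-LINC00673-2, with medians of 0.19 and 0.01. The shares higher and lower were 6.67% and 13.3%, then 20.0% and 20.0%, beside 11.1% and 15.6%, then 11.0% and 23.1%, of all tested genes. ODC1, the ornithine decarboxylase that starts polyamine synthesis, rose from 104.0 ± 0.799 FPKM to 161.0 ± 4.4 and 169.0 ± 5.30 FPKM. MRI1, an enzyme of methionine salvage, fell from 20.3 ± 1.01 FPKM to 15.0 ± 0.223 and 14.4 ± 0.437 FPKM, and PAOX, a polyamine oxidase, from 1.97 ± 0.235 FPKM to 0.690 ± 0.122 and 0.513 ± 0.0808 FPKM. AMD1, which decarboxylates S-adenosylmethionine for this pathway, met the criteria with neither siRNA but differed between the knockdown groups by -0.53 (limma adjusted P = 2.1e-05).

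Of 20 tested methyltransferases that spend S-adenosylmethionine, 2 rose and 1 fell with si-LINC00673-1, and 1 rose and 3 fell with si-LINC00673-2. The latter became 5 and 1 after scaling by the median ratio, where 1975 of the 12884 tested genes rose and 2246 fell. As deposited, 10% of the list rose and 5.0% fell, then 5.0% and 15.0%, beside the 11.1% and 15.6%, then 11.0% and 23.1%, of all tested genes. GAMT, which makes creatine, fell by 1.03 and 1.34 on the log2 scale, from 14.7 ± 1.43 FPKM to 6.67 ± 0.577 and 5.2 ± 0.529 FPKM. METTL16, which modifies MAT2A transcripts, rose by 0.38 with si-LINC00673-1 and was at 0.28 with si-LINC00673-2. Another list held genes that take up and deliver cobalamin, the cofactor of MTR, and also MUT, a mutase that uses cobalamin. Of its 8 tested genes, 1 rose and 1 fell with si-LINC00673-1 and 2 rose and 2 fell with si-LINC00673-2. These were 12.5% and then 25.0% each way, beside 11.1% higher and 15.6% lower, then 11.0% and 23.1%, of all tested genes. TCN2, which carries cobalamin in plasma, rose from 1.63 ± 0.107 FPKM to 2.90 ± 0.153 and 2.83 ± 0.430 FPKM. MMAB, which makes the mitochondrial form of cobalamin, fell from 6.84 ± 0.120 FPKM to 4.35 ± 0.0862 and 4.45 ± 0.146 FPKM.

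A broader list, added after the table was seen, held the 57 other genes that the authors' annotation column places in the KEGG pathway of cysteine and methionine metabolism. Of its 41 tested genes, 4 rose and 8 fell with si-LINC00673-1, and 3 rose and 13 fell with si-LINC00673-2. The latter became 5 and 9 after scaling by the median ratio, where 1975 of the 12884 tested genes rose and 2246 fell. As deposited, the shares lower were 19.5% and 31.7% and those higher 9.76% and 7.32%. Of all tested genes, 15.6% and 23.1% were lower and 11.1% and 11.0% higher. The list medians were 0.02 and -0.11. The list includes zinc finger genes such as ZNF692, so the annotation is broader than the enzymes. By the criteria, 8 genes of the list were lower with both siRNAs and 2 were higher with both. LDHA, lactate dehydrogenase A, went the less common way. It rose from 1080.0 ± 15.9 FPKM to 1780.0 ± 25.1 and 2170.0 ± 67.0 FPKM.

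**Figure D5:**
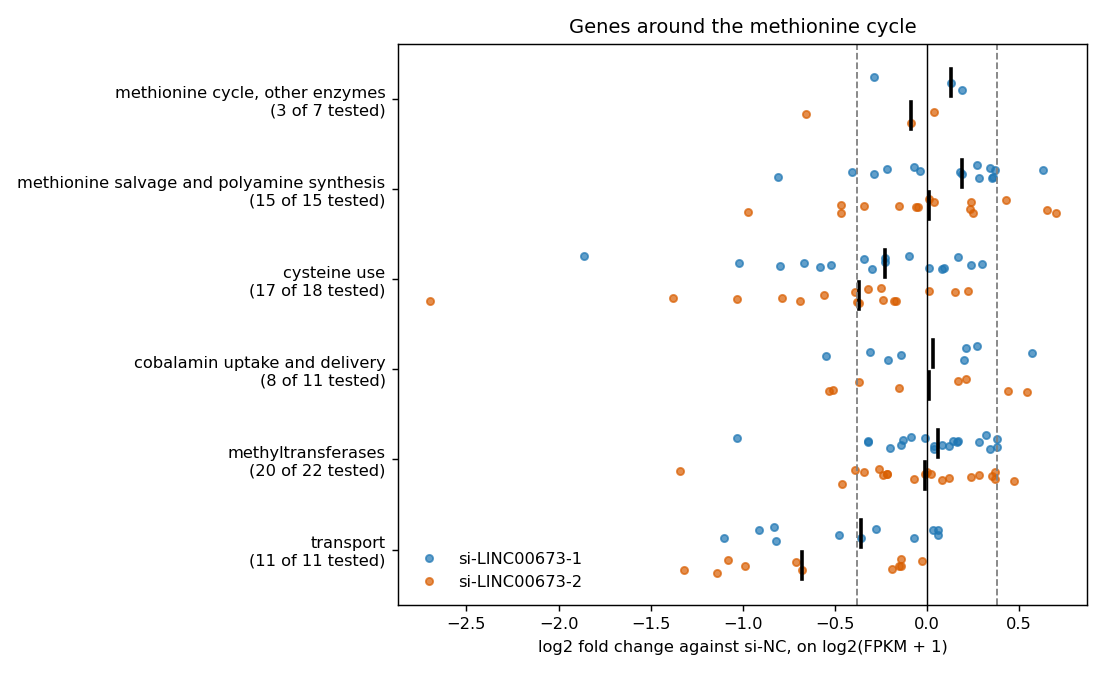
Log2 fold change against si-NC (horizontal axis) of each tested gene in 6 lists around the methionine cycle, with 1 point per gene and siRNA, black bars at the list medians and dashed lines at the 1.3-fold limit. The carriers have medians of -0.36 and -0.68 and the genes of cysteine use -0.23 and -0.37, while those of methionine salvage and polyamine synthesis lie at 0.19 and 0.01.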

How the data were processed

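RNA sequencing libraries (BGISEQ-500) of 3 groups with 3 libraries each were analysed. The authors deposited 1 table of FPKM per gene and library, rounded to 2 decimals. The submitters' processing notes name GRCh37.p13 and Bowtie2 version 2, and the counting tool is not given in the sources used here. Library columns occur in duplicate with identical entries, of which the first set was read. 4 lines without values were left out. Deposited log2 ratios, P values and Q values between groups were not used.

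FPKM were analysed as log2(FPKM + 1) for genes averaging 1 FPKM or more, with limma version 3.58.1 (lmFit, eBayes with trend) in R version 4.3.3, with group as the only factor. The design allowed for counts or FPKM, and the table held FPKM. Criteria were a fold of at least 1.3 and P of at most 0.05. The steps were tested on simulated data. Tables and figures were made in Python 3.11.15 with pandas 2.3.3 and matplotlib 3.10.9.

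Depth was estimated over 174 to 189 genes of 300 to 900 bases in 1 transcript, with 100 bases taken off the length, where the mean distance from whole fragments was 0.086 to 0.116. The offset was chosen from the data, so the depth is approximate. No counts were rebuilt.

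The members and lists were chosen with earlier results of these data known. Named genes were every member and the 5 genes nearest to CBS. In each list from general knowledge, the 3 genes with the largest mean change were also named. These were taken among genes meeting the criteria in the same direction with both siRNAs. Of the KEGG list, not every gene that met this rule was named. SLC7A11, AMD1, METTL16, GCLC, GCLM, GSS, AHCYL1, AHCYL2 and ZNF692 were added after values were seen. Alternatives were another added value, other filters, 2 scalings, a GC correction (values for 88.179% of tested genes), only the 6 libraries compared, the replicate block, each library left out, an adjusted P and a fold of 2. The sum of CBS and CBSL was not run. Some genes of the lists are not reported here. Replicate labels did not pair the libraries: same-numbered deviations correlated at -0.239 to 0.104, and others at -0.208 to 0.272.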

Additional observations from a re-analysis of the deposited data

Results flagged for a closer look

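The difference between the knockdown groups passed an adjusted P of 0.05 by limma for 3 enzymes as the values were deposited, and only that of MAT2B stayed past it under each alternative run. The log2 difference, si-LINC00673-2 minus si-LINC00673-1, was -0.32 for CBS (adjusted P = 0.041, and 0.0003 to 0.13 over the alternatives with all libraries). It was -0.13 for MAT2A (adjusted P = 0.019, and 1.6e-05 to 0.57) and -0.21 for MAT2B (adjusted P = 0.00047, and 2e-06 to 0.016). CBS was lower in 3 of 3 libraries of si-LINC00673-2, MAT2A in 3 of 3 and MAT2B in 3 of 3. Beside these, 44.0% of all tested genes passed the same threshold.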

How the results depend on the processing

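For the 7 enzymes, 311 recomputed values kept their direction and side of the threshold, and 48 recomputed counts of changed genes stayed within 1.5 times. In 6 comparisons with values near 0 the sign turned, in 16 recomputed values. MAT2A with si-LINC00673-2 became -0.43 after division by GAPDH, past the limit, and -0.02 after the GC correction, and ranged from -0.02 to 0.03 with 1 library left out. The others stayed short of it: with si-LINC00673-1, GAPDH division and the GC correction took MAT2B to -0.09 and -0.02 and MTR to -0.12 and -0.03, and MTR ranged from -0.02 to 0.03 with 1 library left out. Median-ratio scaling took MTR with si-LINC00673-2 to 0.04, and between the knockdown groups AHCY to 0.04 and MTR to 0.03. The cause of these changes was not tested unless the setting itself gives it. With means of at least 5 FPKM, and so fewer genes tested, 2211, 2714 and 547 genes changed (si-LINC00673-1 and si-LINC00673-2 against si-NC, then si-LINC00673-2 against si-LINC00673-1), and with a fold of 2 the counts were 366, 604 and 40. GAPDH division gave 8729 and 6764 in the comparisons with si-LINC00673-2, and 0.1 FPKM added gave 1656 in the last. The GC correction turned the split with si-LINC00673-1 to 1548 higher and 1019 lower, and median-ratio scaling that between the knockdown groups from 282 higher and 702 lower to 524 and 321.

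Against si-NC with si-LINC00673-1, GAPDH division gave CTH -0.50 and AHCY -0.44, 0.1 FPKM added gave CTH -0.54 and the GC correction CTH -0.41, all past the limit. With si-LINC00673-2, AHCY fell short at -0.28 (median ratio) and -0.31 (GC), and GAPDH division took MAT2B to -0.61, MTR to -0.48 and MTRR to -0.61. Between the knockdown groups, CBS missed an adjusted P of 0.05 without the filter (-0.32, 0.084), after median-ratio scaling (-0.23, 0.13) and with only the libraries compared (-0.32, 0.076), and MAT2A after median-ratio scaling (-0.03, 0.57). GAPDH division brought past it CTH (-0.57), AHCY (-0.37), MTR (-0.36) and MTRR (-0.44), and the GC correction CTH (-0.25) and AHCY (-0.10). Leaving out 1 library gave ranges between the knockdown groups of -0.43 to -0.17 for CBS, -0.34 to -0.14 for CTH, -0.17 to -0.10 for MAT2A (adjusted P 0.014 to 0.074) and -0.17 to -0.10 for MTRR. Against si-NC they were -0.43 to -0.35 for CTH with si-LINC00673-1 and -0.40 to -0.37 for AHCY with si-LINC00673-2. CBS between the knockdown groups stayed below an adjusted P of 0.05 only without library r1 of si-LINC00673-2 or of si-NC. With 1 library left out, 3339 to 3592, 4296 to 4464 and 939 to 1117 genes changed.

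With the replicate number as a replicate block, 3449, 4400 and 988 genes changed, and CBS between the knockdown groups was -0.32 with an adjusted P of 0.074. No other call of the 7 enzymes changed with the block. Of 9 same-numbered pairs, 1 had a correlation of deviations above 0.1, so the numbers were not used for pairing. Depth limits CTH most, with an estimated 47 to 142 fragments per library.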
